A study of Mus musculus with 8 samples.

Results

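A set of 10 mouse genes that carry the cellular responses to stress in the endoplasmic reticulum (ER) and to a lack of amino acids was followed through 8 bulk RNA sequencing libraries of thymic epithelial cells (TECs). The genes were chosen by name from these pathways, with earlier results of these data known: Atf4, Atf5, Ddit3, Trib3, Asns, Chac1, Sesn2, Hspa5, Xbp1 and Herpud1, 10 of the 56923 genes counted. All 10 were found in the count tables, and 9 passed the filter on low counts and were tested among 14504 genes. Chac1 did not pass and is given as counts.

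The study asked how far TECs keep their identity when they grow as organoids rather than as a flat layer. All cells came from thymi of wild-type C57BL/6J embryos at embryonic day E16.5, were sorted as EpCAM+ cells and received no experimental treatment. In vivo TECs were lysed straight after sorting. 2D-cultured TECs grew for 3 days on plates coated with laminin until the layer was confluent, and D3 and D7 organoids grew in Matrigel, a gel of basement membrane proteins, for 3 and 7 days. The cultured cells shared TEC medium, which contains FGF7 and the thiol antioxidant N-acetylcysteine, and the organoid protocol added the kinase inhibitor thiazovivin for the first 2 days. Each group had 2 libraries, labelled as biological replicates, so every p-value below rests on the spread within 4 pairs of libraries. With 2 against 2 libraries, the smallest p of an exact permutation test is 0.333, and calls were therefore taken from edgeR's quasi-likelihood test over all genes. Culture surface and culture time both differ between 2D-cultured TECs and D7 organoids and cannot be told apart in that comparison. In vivo TECs were lysed just after enzymatic dissociation of the thymus, staining and sorting. Cultured cells were lysed days after these steps, 2D layers directly and organoids once Matrigel was dissolved in cold PBS. Culture and this handling cannot be told apart in the differences from in vivo TECs. Culture surface, the way cells were collected and the thiazovivin step of the organoid protocol cannot be told apart between 2D-cultured TECs and organoids, also at D3.

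The ER folds secreted and membrane proteins, and an overload of unfolded protein there is sensed by 3 membrane proteins, PERK (gene Eif2ak3), IRE1 (Ern1) and ATF6 (Atf6). PERK, like the amino acid sensor GCN2 (Eif2ak4), phosphorylates the translation factor eIF2α, which slows protein synthesis as a whole while more ATF4 protein is made from its messenger RNA. ATF4 then switches on genes for amino acid synthesis, uptake and charging onto transfer RNA. IRE1 splices the messenger RNA of Xbp1 into the form that encodes an active factor, and together with ATF6 this raises ER chaperones and the machinery that clears misfolded proteins. The QuantSeq libraries hold about 1 fragment per polyadenylated transcript, taken near its 3′ end, so the counts show neither the splicing of Xbp1 nor how much ATF4 protein was made. In the thymus, cortical TECs carry a dedicated proteasome and process antigens for developing T cells, which makes protein turnover part of their specialised work.

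Total counts per library lay between 5084715 and 7612532, of which ribosomal RNA genes took 22.7% to 29.4% and mitochondrial genes 4.39% to 9.46%. Levels are given as CPM, counts scaled to the library total after adjustment by trimmed mean of M values (TMM) factors. The TEC markers Epcam, Krt8, Krt18, Krt5 and Foxn1 were counted in every library, at levels that differed between groups. Foxn1, the master transcription factor of TECs, had a mean of 248.4 CPM in in vivo TECs, 6.67 in 2D-cultured TECs, 9.19 in D3 and 72.7 in D7 organoids. Means of the keratin genes Krt8 and Krt18 were 418.8 and 1741.3 CPM in in vivo TECs and 956.7 and 3368.0 CPM in 2D-cultured TECs. They were 94.99 and 257.8 CPM in D3 and 74.15 and 488.6 CPM in D7 organoids. Krt5 had means of 258.0, 692.4, 242.1 and 69.51 CPM in in vivo TECs, 2D-cultured TECs, D3 and D7 organoids. Epcam, at 197.7 CPM in in vivo TECs, was higher in 2D-cultured TECs (766.8), D3 (580.5) and D7 organoids (440.6). Psmb11, the cortical proteasome subunit, had 3006 and 3942 counts in in vivo TECs 3 in each 2D library, 3 and 7 in D3 organoids and 858 and 570 in D7 organoids. The part of these marker differences in the results below was not tested. Thymocyte markers differed between fresh and cultured cells: 7 of 8 exceeded 3 counts in an in vivo library, and their summed level was 658.5 and 290.6 CPM there against 2.36 to 9.26 CPM in the 6 libraries of cultured cells. Ptcra, a defining thymocyte gene, had 107 and 50 counts in the in vivo libraries and 0 in all cultured ones. Summed markers of mesenchyme lay between 17.8 and 79.3 CPM, and those of endothelium, erythroid and myeloid cells stayed at or below 12.5 CPM in every library. The part of thymocyte RNA in the differences from in vivo TECs below was not tested, and in bulk samples fewer cells of a type and less RNA per cell cannot be told apart.

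Atf4 (chromosome 15, 80139372 to 80141745, plus strand, GRCm39), the transcription factor at the centre of the response, varied least of the 10 genes over the 8 libraries, by 1.33-fold from the lowest to the highest. It was counted at 256.5 and 214.4 CPM in in vivo TECs and at 235.3 and 226.0 CPM in 2D-cultured TECs. D3 organoids had 198.6 and 193.5 CPM and D7 organoids 199.1 and 225.2 CPM. Fitted log2 fold changes of Atf4 over the 6 comparisons lay between -0.26 and 0.11, and none passed the test, with adjusted p from 0.22 to 0.9.

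Atf5 (chromosome 7, 44461680 to 44466082, minus strand), a related factor whose protein is also made when eIF2α is phosphorylated, separated all 4 groups. In vivo TECs had 10.4 and 13.4 CPM and D3 organoids 16.9 and 16.2 CPM. D7 organoids reached 37.6 and 39.01 CPM and 2D-cultured TECs 74.7 and 76.1 CPM, so no pair of groups overlapped. Atf5 was 6.31-fold higher in 2D-cultured than in in vivo TECs (log2 fold change 2.66 ± 0.22, SE, adjusted p = 2.8e-08) and 3.20-fold higher in D7 organoids than in freshly sorted cells (adjusted p = 1.3e-05). It also rose between D3 and D7 organoids, by 1.21 ± 0.21 on the log2 scale (adjusted p = 0.00071). The neighbours at the low end, in vivo TECs and D3 organoids, differed by 0.47 ± 0.22, which did not pass the test (adjusted p = 0.14).

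Ddit3 (chromosome 10, 127124268 to 127132163, plus strand) encodes CHOP, a factor tied to cell death under lasting ER stress. Its lowest values were in 2D-cultured TECs, at 5.08 and 5.37 CPM, followed by D3 organoids at 9.77 and 8.92 CPM. In vivo TECs had 17.9 and 13.9 CPM, and the D7 libraries lay apart from each other at 12.99 and 25.81 CPM. Ddit3 fell 3.03-fold in 2D-cultured TECs against in vivo TECs (log2 fold change -1.60 ± 0.37, adjusted p = 0.0023), opposite in sign to Atf5 in the same libraries. D7 organoids were 3.66-fold above 2D-cultured TECs (1.87 ± 0.37, adjusted p = 0.00056). The excess of D7 over D3 organoids, 1.04 ± 0.35, passed narrowly (adjusted p = 0.042) and did not pass with limma-voom (0.88, adjusted p = 0.065), with DESeq2's Wald test (1.01, adjusted p = 0.079) or without ribosomal RNA and mitochondrial genes (0.97, adjusted p = 0.056). The call was also lost without either D3 library (1.1 without replicate 1, 0.9 without replicate 2) and without D7 replicate 2, the higher library (0.48). An exon of Mars1 on the other strand lies within the last 500 bases of Ddit3, and whether the counting kept strands apart is not given in the sources used here, so reads of both genes may not be fully separated. The annotation lists a second gene identifier named Ddit3 at the same place, and it had 0 counts in every library.

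Xbp1 (chromosome 11, 5470606 to 5483027, plus strand), the factor activated by IRE1, was highest in freshly sorted cells. In vivo TECs had 161.5 and 140.7 CPM and 2D-cultured TECs 74.3 and 44.3 CPM. D3 organoids had 51.7 and 49.3 CPM and D7 organoids 32.4 and 30.3 CPM. All 6 cultured libraries lay below both in vivo libraries. Against in vivo TECs, Xbp1 fell 2.55-fold in 2D-cultured TECs (adjusted p = 5.9e-05), 2.99-fold in D3 organoids (adjusted p = 1.9e-05) and 4.81-fold in D7 organoids (log2 fold change -2.26 ± 0.22, adjusted p = 4.8e-07). The 2D and D3 values overlapped and differed by -0.23 ± 0.21 (adjusted p = 0.42). The smaller drop from D3 to D7 organoids, -0.68 ± 0.22 (adjusted p = 0.034), lost its call whichever of the 4 libraries was left out, with adjusted p from 0.068 to 0.19, and the difference of D7 organoids from 2D-cultured TECs, -0.92 ± 0.22, lost it without 2D replicate 1 (-0.50, adjusted p = 0.092). In vivo replicates 1 and 2, with 161.5 and 140.7 CPM of Xbp1, had 658.5 and 290.6 CPM of summed thymocyte markers. The part of thymocyte RNA in the fall of Xbp1 was not tested.

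**Figure D1:**
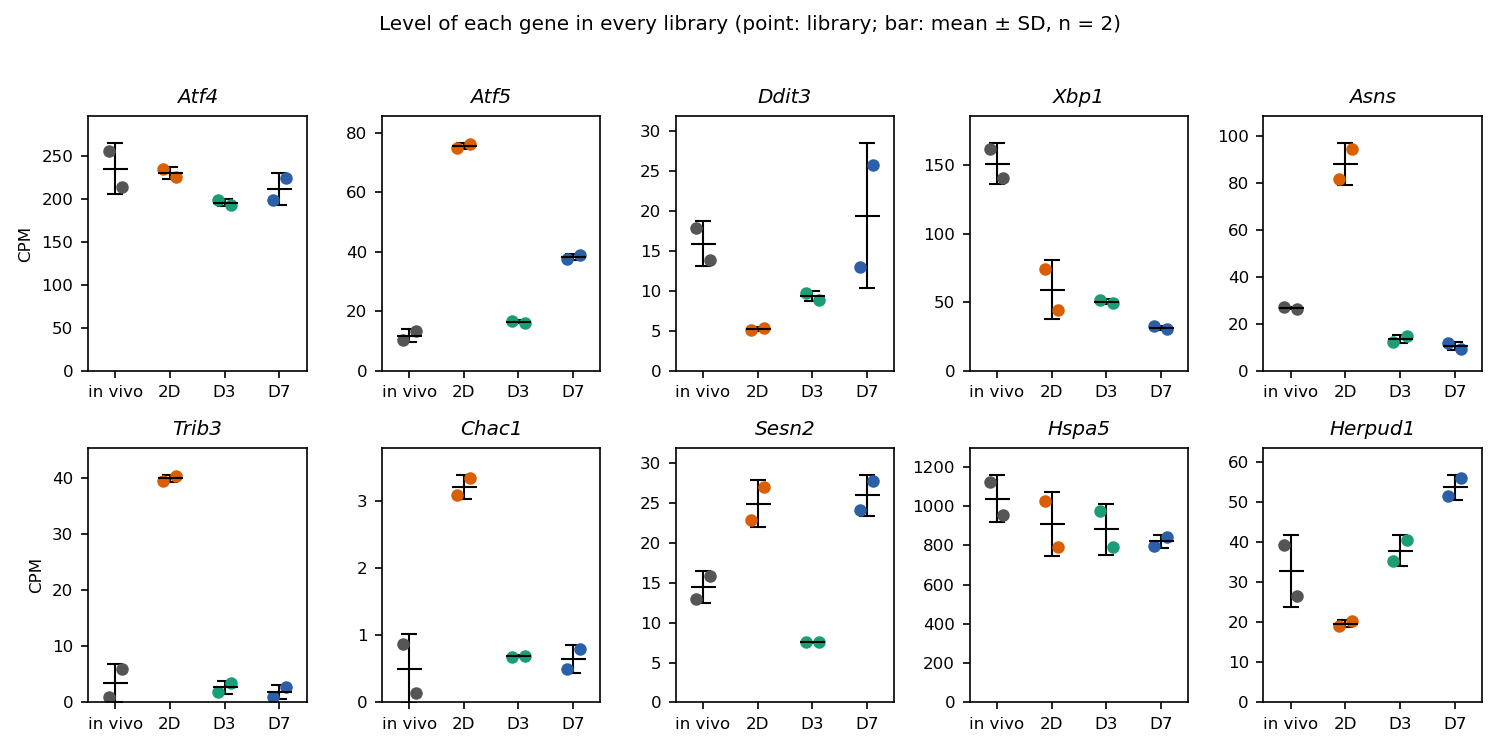
Level of each of the 10 genes in CPM on a linear axis from 0 (points, 1 per library; horizontal bars, mean; whiskers, SD, n = 2) in in vivo TECs, 2D-cultured TECs, D3 and D7 organoids. Asns, Trib3, Chac1 and Atf5 have both of their highest values in the 2D libraries, Xbp1 in the in vivo libraries and Herpud1 in the D7 libraries, while Atf4 spans 1.33-fold and Hspa5 1.42-fold over all 8 libraries.

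Asns (chromosome 6, 7671667 to 7728461, minus strand) encodes asparagine synthetase and is a textbook ATF4 target. It was counted at 81.9 and 94.5 CPM in 2D-cultured TECs against 27.1 and 26.4 CPM in in vivo TECs. D3 organoids had 12.5 and 14.8 CPM and D7 organoids 11.9 and 9.46 CPM. Thus 2D-cultured TECs stood 3.30-fold above in vivo TECs (log2 fold change 1.72 ± 0.21, adjusted p = 3.6e-06), and organoids stood below them, by 0.97 ± 0.22 at D3 (adjusted p = 0.0031) and 1.31 ± 0.23 at D7 (adjusted p = 0.00025). Against 2D-cultured TECs the organoids were 6.45-fold lower at D3 and 8.17-fold lower at D7 (adjusted p = 4.3e-08 and 1.1e-08). D3 and D7 organoids did not differ beyond the test (-0.34 ± 0.24, adjusted p = 0.34).

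Trib3 (chromosome 2, 152179337 to 152191958, minus strand), a pseudokinase that ATF4 and CHOP induce and that feeds back on both, showed the widest range. Its counts were 218 and 218 in the 2D libraries, 6 and 42 in the in vivo libraries, 11 and 25 in D3 organoids and 8 and 14 in D7 organoids. On the CPM scale this was 39.5 and 40.4 in 2D-cultured TECs, and no other library exceeded 5.91 CPM. Trib3 was 11.1-fold higher in 2D-cultured than in in vivo TECs (3.47 ± 0.51, adjusted p = 3.4e-05), 14.6-fold lower in D3 organoids and 22.7-fold lower in D7 organoids than in 2D-cultured TECs (adjusted p = 1.8e-05 and 6e-06). The 2 in vivo libraries differed widely, at 1.04 and 5.91 CPM. Without in vivo replicate 1 the log2 fold change of 2D-cultured over in vivo TECs was 2.75, and without in vivo replicate 2 it was 5.24, both past the threshold. Organoids and in vivo TECs overlapped at D3 and D7, and the sign of their difference turned without in vivo replicate 2, to 1.38 at D3 and 0.71 at D7. Without in vivo replicate 1 the D7 difference was -1.77 and passed the test (adjusted p = 0.018). Against 2D-cultured TECs, leaving out a D7 library moved the log2 fold change to -3.85 (without replicate 1) or -5.30 (without replicate 2).

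Chac1 (chromosome 2, 119180757 to 119184866, plus strand), which breaks down glutathione and is also an ATF4 target, stayed close to the floor of detection. It had 17 and 18 counts in the 2D libraries, 5 and 1 in the in vivo libraries, 4 and 5 in D3 organoids and 4 and 4 in D7 organoids. Both 2D libraries lay above all others. They were the only ones with 1 CPM or more, and the filter asked for 3 libraries. In a fit without the filter on low counts, the log2 fold change of 2D-cultured over in vivo TECs was 2.74 and did not pass the test (edgeR, adjusted p = 0.09).

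Sesn2 (chromosome 4, 132219335 to 132237815, minus strand) encodes Sestrin 2, a leucine sensor that restrains mTORC1 signalling. It was counted at 22.8 and 27.0 CPM in 2D-cultured TECs and at 24.1 and 27.8 CPM in D7 organoids. In vivo TECs had 13.01 and 15.89 CPM and D3 organoids 7.58 and 7.52 CPM. D7 organoids thus overlapped with 2D-cultured TECs (0.05 ± 0.25, adjusted p = 0.88), which they did not for Asns and Trib3, and stood 3.42-fold above D3 organoids (1.77 ± 0.27, adjusted p = 0.00024). D3 organoids were 3.30-fold below 2D-cultured TECs (adjusted p = 6.9e-05). The differences from in vivo TECs were smaller: 0.78 ± 0.25 in 2D-cultured TECs, -0.94 ± 0.27 in D3 organoids and 0.84 ± 0.25 in D7 organoids, with adjusted p of 0.02, 0.016 and 0.016. Each of these 3 calls was lost in some fits without 1 library, with adjusted p up to 0.12, 0.091 and 0.13. The first was also lost with scaling by library size alone (0.60, adjusted p = 0.069) and the second in a fit of only the 4 libraries compared (-0.94, adjusted p = 0.071).

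Hspa5 (chromosome 2, 34661982 to 34668880, plus strand) encodes BiP, the main ER chaperone and a standard readout of ER stress. It was counted at 1124.4 and 952.7 CPM in in vivo TECs and at 1025.0 and 793.5 CPM in 2D-cultured TECs. D3 organoids had 973.4 and 791.4 CPM and D7 organoids 798.6 and 843.3 CPM. Its log2 fold changes lay between -0.34 and -0.04 in the 6 comparisons, with adjusted p from 0.11 to 0.86, so no difference in Hspa5 passed the test, and its values spanned 1.42-fold over the 8 libraries. The end of Rabepk, on the other strand, overlaps the last 500 bases of Hspa5, and Rabepk had between 76 and 145 counts per library.

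Herpud1 (chromosome 8, 95113022 to 95123141, plus strand) encodes a membrane protein that recruits the machinery for degrading ER proteins. Its order across the groups was the reverse of that of Asns in the cultured cells. 2D-cultured TECs had 19.0 and 20.4 CPM, D3 organoids 35.2 and 40.7 CPM and D7 organoids 51.6 and 56.0 CPM. The in vivo libraries had 39.2 and 26.6 CPM, and the D3 libraries lay between or just above them (0.21 ± 0.22, adjusted p = 0.52). Against 2D-cultured TECs, Herpud1 was 1.93-fold higher at D3 and 2.72-fold higher at D7 (adjusted p = 0.0034 and 6.6e-05), while the 2 organoid groups differed by 0.50 ± 0.22 (adjusted p = 0.12). The fall in 2D-cultured against in vivo TECs, -0.73 ± 0.23 (adjusted p = 0.017), lost its call without either 2D library or without in vivo replicate 1 (-0.43, adjusted p = 0.18), and the rise in D7 organoids against in vivo TECs, 0.71 ± 0.22 (adjusted p = 0.018), lost it without in vivo replicate 2 (0.45, adjusted p = 0.15) or without D7 replicate 2 (0.66, adjusted p = 0.1).

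The sequences around the start sites of 5 of these genes are shown because they hold short motifs to which ATF4 and the ER stress factors are known to bind. Of these 5, Asns, Trib3 and Chac1 had their highest values in the 2D libraries and Herpud1 had its lowest values there. The values of Hspa5 overlapped between most groups. The windows are RefSeq promoters of 300 bases, from 250 before to 50 after the start site that RefSeq gives, written 5′ to 3′ on the strand of the gene. RefSeq's table is on GRCm38.p6, and the positions given here are those of the single exact match of each window on its chromosome in GRCm39. Capitals mark the motif matches.
Asns (chr6:7693160-7693459, minus strand): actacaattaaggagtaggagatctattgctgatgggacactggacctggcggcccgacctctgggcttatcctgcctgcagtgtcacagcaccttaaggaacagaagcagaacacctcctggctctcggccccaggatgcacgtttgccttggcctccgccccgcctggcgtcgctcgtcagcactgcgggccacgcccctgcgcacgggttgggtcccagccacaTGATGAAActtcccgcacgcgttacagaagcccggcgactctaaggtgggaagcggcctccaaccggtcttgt
Trib3 (chr2:152185931-152186230, minus strand): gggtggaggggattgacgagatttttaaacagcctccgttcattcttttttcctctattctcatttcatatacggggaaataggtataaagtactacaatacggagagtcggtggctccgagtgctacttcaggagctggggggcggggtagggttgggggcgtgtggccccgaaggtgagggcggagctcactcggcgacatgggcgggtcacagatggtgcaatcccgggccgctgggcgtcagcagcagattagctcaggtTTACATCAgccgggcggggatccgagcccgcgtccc
Chac1 (chr2:119181473-119181772, plus strand): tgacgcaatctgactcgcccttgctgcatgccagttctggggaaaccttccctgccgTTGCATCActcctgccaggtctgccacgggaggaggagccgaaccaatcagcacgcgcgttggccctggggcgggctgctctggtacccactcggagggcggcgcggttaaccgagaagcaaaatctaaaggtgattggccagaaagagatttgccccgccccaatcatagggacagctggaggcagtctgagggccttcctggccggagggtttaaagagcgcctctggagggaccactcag
Herpud1 (chr8:95112807-95113106, plus strand): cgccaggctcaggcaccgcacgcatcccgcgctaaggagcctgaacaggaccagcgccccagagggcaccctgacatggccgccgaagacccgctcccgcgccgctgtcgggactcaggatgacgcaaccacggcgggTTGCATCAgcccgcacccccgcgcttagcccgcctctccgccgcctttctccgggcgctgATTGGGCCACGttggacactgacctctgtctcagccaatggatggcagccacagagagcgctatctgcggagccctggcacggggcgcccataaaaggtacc
Hspa5 (chr2:34661852-34662151, plus strand): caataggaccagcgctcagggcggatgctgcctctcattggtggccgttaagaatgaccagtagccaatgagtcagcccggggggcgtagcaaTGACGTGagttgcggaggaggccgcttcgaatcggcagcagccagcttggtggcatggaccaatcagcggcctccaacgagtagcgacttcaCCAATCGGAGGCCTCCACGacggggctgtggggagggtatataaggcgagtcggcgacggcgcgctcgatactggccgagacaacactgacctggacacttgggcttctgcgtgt

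In Asns the capitals are the amino acid response element (TGATGNAA, where N is any base), which lies on the strand of the gene from 23 to 16 bases before the start site. Trib3, Chac1 and Herpud1 hold it on the other strand: in Trib3 at bases 15 to 22 after the start site, in Chac1 from 193 to 186 before it and in Herpud1 from 112 to 105 before it. Herpud1 also holds the ER stress response element II (ATTGGNCCACG) from 52 to 42 before the start site, not overlapping the first match. Hspa5 holds the ER stress response element (CCAAT, then 9 bases, then CCACG) from 65 to 47 before the start site and the unfolded protein response element core (TGACGTG) from 157 to 151 before it. Both strands were searched. Of 32851 RefSeq promoter windows of this length, 3.97% hold the amino acid response element, 0.119% the ER stress response element, 0.0365% the ER stress response element II and 2.01% the core. The 10 genes have 11 windows, 2 of them of Atf5, and those of Atf4, Atf5, Ddit3, Sesn2 and Xbp1 hold none of these letters, which says nothing about sites elsewhere. Among the 4 genes with an amino acid response element, Asns and Trib3 were called higher in 2D-cultured than in in vivo TECs. Herpud1 was called lower, and Chac1 was not tested. Atf5 and Sesn2, whose windows hold none of these letters, were also called higher in that comparison. Whether the motifs bear on these differences was not tested.

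**Figure D2:**
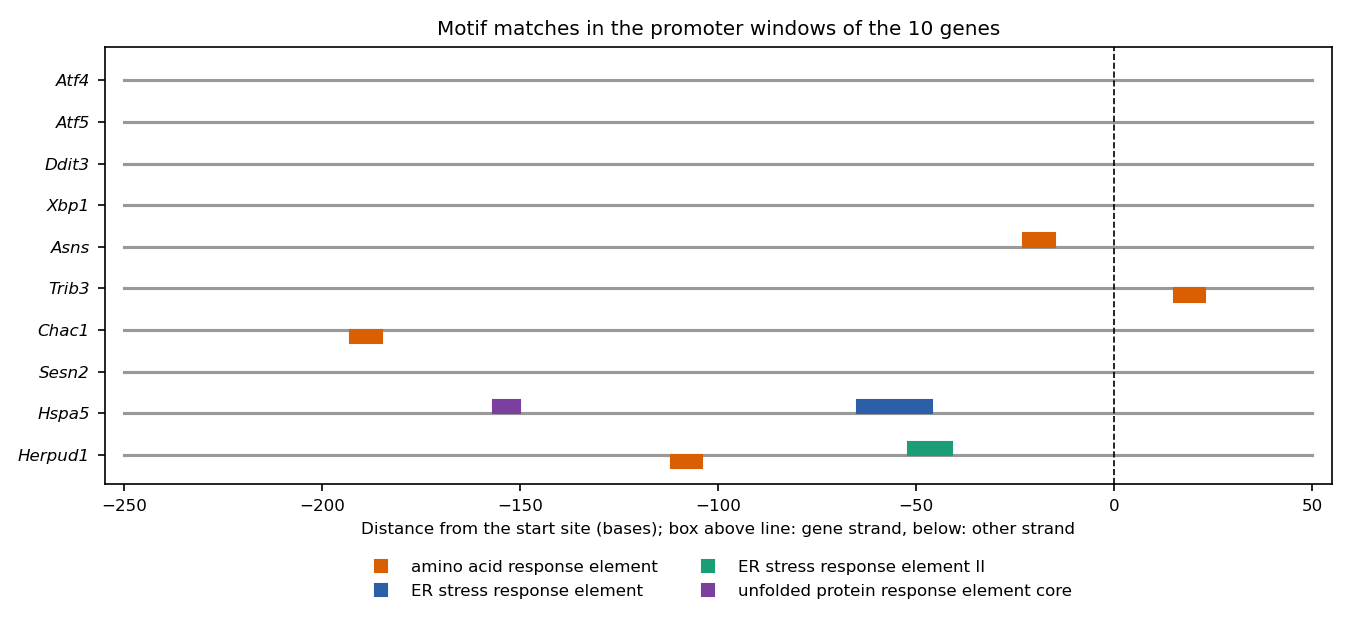
Positions of the motif matches in the 300-base promoter windows, as distance in bases from the RefSeq start site (dashed line); boxes above a line are on the strand of the gene and boxes below it on the other strand. Matches lie in the windows of Asns, Trib3, Chac1, Hspa5 and Herpud1 and in none of the other 5 genes.

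Between 2D-cultured and in vivo TECs, 4 of the 9 tested genes were higher (Atf5, Trib3, Asns and Sesn2) and 3 lower (Ddit3, Xbp1 and Herpud1). Over all 14504 genes tested, 19.9% were called higher and 21.7% lower in this comparison. The wider pathway, in lists of genes written for this report, was described in the same way. Among the stress sensors and regulators of eIF2α, 4 of 12 were higher and 1 lower, or 4 and 0 with DESeq2's size factors, and 0 were lower whichever of the 4 libraries was left out. Eif2ak3, the gene of PERK, was counted at 49.85 and 45.01 CPM in 2D-cultured TECs against 6.94 and 7.31 CPM in in vivo TECs, 6.63-fold higher (2.73 ± 0.28, adjusted p = 4.1e-07). Eif2ak4, the gene of GCN2, overlapped between the groups, at 31.0 and 18.7 CPM against 21.0 and 21.4 CPM (adjusted p = 0.52). It and Atf3 below are named in this comparison after their values were seen.

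Of the other genes of the ATF4 branch, 6 of 11 were higher and 1 lower, beside 19.9% and 21.7% of all genes tested. Their median log2 fold change was 0.70 against -0.06 over all genes tested. Nupr1, a small stress-induced chromatin protein, had 260.1 and 244.7 CPM in the 2D libraries against 1.04 and 1.83 CPM in the in vivo libraries (7.40 on the log2 scale, adjusted p = 3.8e-12). Cebpb, a partner of ATF4 on DNA, rose by 2.11 (adjusted p = 2.4e-05) and Eif4ebp1, a brake on translation, by 1.63 (adjusted p = 0.00011). Cebpg, another partner, fell by 0.93 (adjusted p = 0.0018). Atf3, induced downstream of ATF4, had overlapping values of 16.1 and 9.45 CPM in the 2D and 14.6 and 15.8 CPM in the in vivo libraries (adjusted p = 0.76).

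Of 16 genes of amino acid synthesis and one-carbon metabolism in 2D-cultured TECs, 3 were higher and 6 lower: Pycr1, which makes proline, was counted at 10.2 and 15.9 CPM against 1.22 and 1.41 CPM (3.29, adjusted p = 0.00019) and the mitochondrial folate enzyme Mthfd2 rose by 1.67 (adjusted p = 0.00034), while Glul, glutamine synthetase, fell by 1.94 (adjusted p = 5.7e-08) and Cth, which makes cysteine, fell by 1.88 (adjusted p = 6.2e-06). Of 11 amino acid transporter genes tested, 5 were higher and 2 lower, but 3 were higher without either 2D library and 2 without in vivo replicate 2, and 1 was lower without 2D replicate 1 or in vivo replicate 1. Slc7a3, a carrier of arginine and lysine, had 30.1 and 30.6 CPM in the 2D libraries and 1.04 and 1.41 CPM in the in vivo libraries (4.59, adjusted p = 2.1e-05), whereas Slc1a4, a carrier of serine and alanine, fell by 1.78 (adjusted p = 8.1e-07). Of 20 cytosolic aminoacyl-tRNA synthetase genes, 8 were higher and 1 lower, among them Sars1 (1.56, adjusted p = 1.3e-06), Nars1 (1.44, adjusted p = 7.7e-06) and Vars1 (-1.41, adjusted p = 1.6e-06). Without 2D replicate 1, 2D replicate 2 or in vivo replicate 2, 5 of these were higher, and 2 were lower without in vivo replicate 2. Their median was 0.36 against -0.06 over all genes tested. Of all genes tested, 19.9% were higher and 21.7% lower in this comparison. The counts of synthesis genes higher and of transporters lower lie near these shares. With scaling by library size alone, which moved the median gene of this comparison by -0.178, 5 of the 20 were higher and 3 lower, the transporters had 3 in each direction and the other ATF4 branch genes 5 higher and 2 lower.

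Of the ER genes other than Hspa5, 8 of 20 chaperones and folding enzymes were higher and 3 lower, and 8 of 20 genes of ER degradation and translocation were higher and 2 lower, beside 19.9% and 21.7% of all genes tested. Without 2D replicate 1, 5 of each list were higher, and without it, 2D replicate 2 or in vivo replicate 1, 1 of each list was lower. Ero1a, the oxidase that drives disulphide formation, had 66.7 and 88.2 CPM in the 2D libraries and 16.0 and 9.70 CPM in the in vivo libraries (2.60, adjusted p = 4.1e-07). Pdia3, a disulphide isomerase, rose by 0.85 (adjusted p = 0.00016), and Ube2j1, a ubiquitin-conjugating enzyme of the ER membrane, by 1.44 (adjusted p = 2.5e-05). The co-chaperones went both ways: Dnajb9 fell by 0.84 (adjusted p = 0.039) and Dnajb11 rose by 0.83 (adjusted p = 0.0055). With scaling by library size alone, 5 degradation and translocation genes were higher.

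In D3 organoids against in vivo TECs, 0 of the 9 genes were higher in edgeR's test, and 0 at an unadjusted p below 0.05, with DESeq2 or with limma-voom, and 3 were lower (Asns, Sesn2 and Xbp1), where 14.1% of all genes tested were higher and 14.0% lower. Among ATF4 branch genes, 4 of 11 were higher and 5 lower. Stc2, a secreted glycoprotein, had 1.69 and 0.975 CPM in D3 organoids against 17.4 and 18.6 CPM (adjusted p = 5.8e-05), and Atf3 had 2.02 and 0.139 CPM against 14.6 and 15.8 CPM (adjusted p = 0.00045). Cebpb rose by 1.90 (adjusted p = 0.00012), to 25.9 and 25.4 CPM. Of the 12 sensors and regulators of eIF2α, 1 was higher and 1 lower. The lower 1 was Ppp1r15a, whose product removes the phosphate from eIF2α, with 6.57 and 3.34 CPM against 31.8 and 33.9 CPM (adjusted p = 3.5e-05). Of the 16 amino acid synthesis genes, 4 were higher and 2 lower, such as Mthfd1l (1.06, adjusted p = 0.0079) and Cth (-1.26, adjusted p = 0.00041). Fewer of them were higher with any of the 4 libraries left out. Of the 11 transporter genes, 4 were higher and 1 lower, including Slc3a2 (0.97, adjusted p = 0.00026), the shared heavy chain of several transporters, and Slc38a2 (-0.70, adjusted p = 0.0016), a carrier of glutamine and other neutral amino acids. The synthetases had 0 of 20 higher, also at an unadjusted p below 0.05 and with DESeq2 or limma-voom, and 2 lower in edgeR's test, Vars1 (-1.20) and Iars1 (-0.65). Chaperones had 3 of 20 higher and 1 lower, with Cnpy2 up by 0.94 (adjusted p = 0.00038) and Dnajb9 down by 1.61 (adjusted p = 0.001), and ER degradation and translocation genes 2 higher and 2 lower, or 2 and 1 with library size alone. These counts are small and moved with single libraries. Without in vivo replicate 2 or D3 replicate 1, 2 transporters and 1 chaperone were higher. Without in vivo replicate 2, 3 chaperones were lower, and without D3 replicate 1, 2 transporters were. Without in vivo replicate 1 or either D3 library, 1 synthetase and 0 degradation genes were lower, and without D3 replicate 2, 1 synthetase was higher.

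In D7 organoids against in vivo TECs, 3 of the 9 genes were higher (Atf5, Sesn2 and Herpud1) and 2 lower (Asns and Xbp1), with 18.0% and 16.8% of all genes tested called in these directions. Without D7 replicate 2, 3 of the 9 were called in place of 5. Nupr1 rose to 10.1 and 15.0 CPM (3.05 ± 0.32, adjusted p = 1.5e-06) and Jdp2, a Jun dimerization protein related to ATF3, rose by 2.11 (adjusted p = 8.2e-06), while Atf3 had 0 and 3 counts against 84 and 112 (adjusted p = 5.7e-05). In all, 4 of 11 ATF4 branch genes were higher and 5 lower. Of the 12 sensors and regulators of eIF2α, 2 were higher and 2 lower, near the shares of all genes tested. Among them, Ppp1r15a fell by 3.29 (adjusted p = 7.6e-06). Amino acid synthesis genes had 3 of 16 higher and 6 lower, with Glul up by 0.81 (adjusted p = 0.00067) and Cth down by 2.20 (adjusted p = 2.1e-06). The cystathionine synthase gene Cbs had 17.8 and 19.1 CPM against 1.74 and 4.50 CPM (adjusted p = 0.00069). Transporters had 4 of 11 higher and 1 lower (4 and 2 with DESeq2's size factors), led by Slc1a5 (1.53, adjusted p = 0.00032), and synthetases 3 of 20 in each direction, Sars1 up by 1.14 and Tars1 down by 1.25. Without D7 replicate 2, 1 synthetase was higher. The count of transporters lower was 2 without in vivo replicate 2, 0 without D7 replicate 1 and 3 without D7 replicate 2.

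Of the ER degradation and translocation genes in D7 organoids, 5 of 20 were higher and 4 lower than in in vivo TECs, or 4 and 5 with DESeq2's size factors, which lies near the 18.0% and 16.8% of all genes tested. Syvn1, the ubiquitin ligase HRD1, had 7.92 and 2.17 CPM against 41.6 and 27.4 CPM (-2.68 ± 0.41, adjusted p = 7.8e-05), and Sel1l, its partner in the membrane, was 1.07 ± 0.16 higher (adjusted p = 5.1e-05). Edem1, which marks misfolded glycoproteins, fell by 1.74 (adjusted p = 0.00023), and Os9, a lectin that hands them on, rose by 1.0 (adjusted p = 0.00051). Herpud1, which binds HRD1, was higher, as given above. Chaperones had 4 of 20 higher and 4 lower, also near those shares, and 2 higher and 0 lower without in vivo replicate 1 or D7 replicate 2, with Cnpy2 up by 1.20 and the secreted ER factor Manf down by 1.03 (adjusted p = 3.2e-05 and 0.0046).

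Between cells cultured for the same 3 days, D3 organoids had 1 of the 9 genes higher (Herpud1) and 4 lower (Atf5, Trib3, Asns and Sesn2) than 2D-cultured TECs, where 19.3% of all genes tested were higher and 19.1% lower. Despite the same culture time, these groups differed in culture surface and in how cells were collected, which cannot be told apart here. Thymocyte marker RNA was near 0 in both groups, at 2.36 and 6.85 CPM in the 2D and 3.54 and 4.74 CPM in the D3 libraries. Ddit3, 0.83 ± 0.38 higher, did not pass the test (adjusted p = 0.094) but did with scaling by library size alone (1.10, adjusted p = 0.027), a scaling that moved the median gene by 0.263. Nupr1 was lower by 6.04 on the log2 scale (adjusted p = 2.1e-11), and Ddit4, an inhibitor of mTORC1, lower by 1.59 (adjusted p = 5.1e-07). In all, 6 of 11 ATF4 branch genes were lower and 1 higher, with a median of -1.59 against 0.02 over all genes tested. Eif2ak3 was lower by 2.42 (adjusted p = 1.7e-06), and 4 of the 12 sensors and regulators were lower and 1 higher, or 3 and 2 with library size alone. Without D3 replicate 1 or either 2D library, 0 of the ATF4 branch genes and 0 of the sensors were higher.

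Among the amino acid genes of D3 organoids, synthesis genes had 5 of 16 higher, among them Glul (2.02, adjusted p = 4.8e-08) and the serine enzyme Phgdh (0.98, adjusted p = 0.0094), and 3 lower, Pycr1 (-2.57), Gpt2 (-1.40) and Mthfd2 (-1.35). Slc7a3 had 7 and 0 counts in D3 organoids against 166 and 165 in 2D-cultured TECs (adjusted p = 7.4e-06), whereas Slc1a4 was higher by 1.85 (adjusted p = 6.5e-07), with 3 of 11 transporters higher and 2 lower. The transporter counts and that of synthesis genes lower lie near the 19.3% and 19.1% of all genes tested. Of the synthetases, 9 of 20 were lower, such as Sars1 (-1.36, adjusted p = 7.5e-06), Nars1 (-1.18, adjusted p = 7e-05) and Iars1 (-1.12, adjusted p = 0.00015). In edgeR's test 0 were higher, against 2 at an unadjusted p below 0.05, 0 with DESeq2, 1 with limma-voom and 5, beside 6 lower, with scaling by library size alone. Chaperones had 1 of 20 higher, Cnpy2 (0.90), and 6 lower, or 3 with library size alone, led by Ero1a (-2.75, adjusted p = 3.1e-07). ER degradation and translocation genes had 1 of 20 higher and 5 lower, which became 2 higher and 3 lower with library size alone. Without 2D replicate 1 or D3 replicate 2, 2 chaperones were lower and 0 degradation genes higher, and without D3 replicate 1, 3 chaperones were lower. Without 2D replicate 1 or D3 replicate 1, 3 degradation genes were lower. Without 2D replicate 2, 2 chaperones and 0 degradation genes were higher, and without 2D replicate 1, 1 synthetase was higher.

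In D7 organoids against 2D-cultured TECs, 2 of the 9 genes were higher (Ddit3 and Herpud1) and 4 lower (Atf5, Trib3, Asns and Xbp1), against 24.4% and 21.1% of all genes tested. Atf5 was lower by 0.98 ± 0.20 (adjusted p = 0.00069). Again 7 of 11 ATF4 branch genes were lower and 2 higher, with Nupr1 lower by 4.35 (adjusted p = 1.2e-10) and Jdp2 higher by 1.82 (adjusted p = 2.4e-05). Of the 12 sensors and regulators, 6 were lower, among them Eif2ak3 (-2.33, adjusted p = 2.2e-06), and 0 were higher in edgeR's test, with DESeq2 or with limma-voom, against 2 at an unadjusted p below 0.05 and 2, beside 4 lower, with scaling by library size alone. Synthesis genes had 4 of 16 higher and 8 lower, transporters 3 of 11 higher and 4 lower, and synthetases 2 of 20 higher and 9 lower, or 4 higher and 6 lower with that scaling. The counts of synthesis genes and of transporters higher lie near the 24.4% of all genes tested. Glul was higher by 2.75 (adjusted p = 1.1e-09) and Slc1a4 by 2.70 (adjusted p = 5.8e-09), while Tars1 was lower by 1.73 (adjusted p = 3.7e-07). Chaperones had 2 of 20 higher and 7 lower, and ER degradation and translocation genes 3 higher and 9 lower, which became 3 and 5 and 6 and 8 with that scaling. Among the latter, Ssr3 was lower by 1.79 and Sec61b lower by 1.73 (adjusted p = 3.1e-07 and 4.9e-06). Counts of genes higher fell with single libraries left out, to 1 ATF4 branch gene whichever of the 4 was left out, to 0 synthetases without 2D replicate 1 or D7 replicate 2, to 1 chaperone without 2D replicate 1 or D7 replicate 1, and to 1 degradation gene without 2D replicate 2 or D7 replicate 2.

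Within organoids, 3 of the 9 genes were higher at D7 than at D3 (Atf5, Ddit3 and Sesn2) and 1 lower (Xbp1), where 10.9% of all genes tested were higher and 9.90% lower. Without D3 replicate 1, D3 replicate 2 or D7 replicate 2, only 2 of the 9 were called. Nupr1 was higher by 1.69 ± 0.27 (adjusted p = 0.00044) and Jdp2 by 0.98 ± 0.25 (adjusted p = 0.0091), and 0 of the 11 ATF4 branch genes were lower in edgeR's test, with DESeq2 or with limma-voom, against 1 at an unadjusted p below 0.05. The serine pathway genes Phgdh and Psph were lower by 1.46 and 1.32 (adjusted p = 0.0015 and 0.0017), and 6 of 16 synthesis genes were lower against 1 higher, Glul (0.73, adjusted p = 0.0035). Sel1l and Os9 were higher by 0.95 and 0.89 (adjusted p = 0.00048 and 0.0028), and Syvn1 was lower by 1.61 (adjusted p = 0.012). Of the degradation and translocation genes 3 of 20 were higher and 4 lower, and of the transporters 2 of 11 in each direction, or 2 and 5 and 1 and 2 with DESeq2's size factors. Synthetases had 1 of 20 higher and 2 lower, and chaperones 1 higher and 4 lower. Without D7 replicate 2, 3 synthesis genes, 1 degradation gene and 0 chaperones were lower, and without D3 replicate 1, 0 chaperones were lower. Whichever of the 4 libraries was left out, 1 transporter was called in each direction. Without D3 replicate 1 or either D7 library, 1 synthetase was lower. Without D3 replicate 1, 2 chaperones and 2 synthetases were higher, and without D3 replicate 2 or D7 replicate 2, 0 chaperones were. Without D3 replicate 2 or either D7 library, 1 ATF4 branch gene was called.

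**Figure D3:**
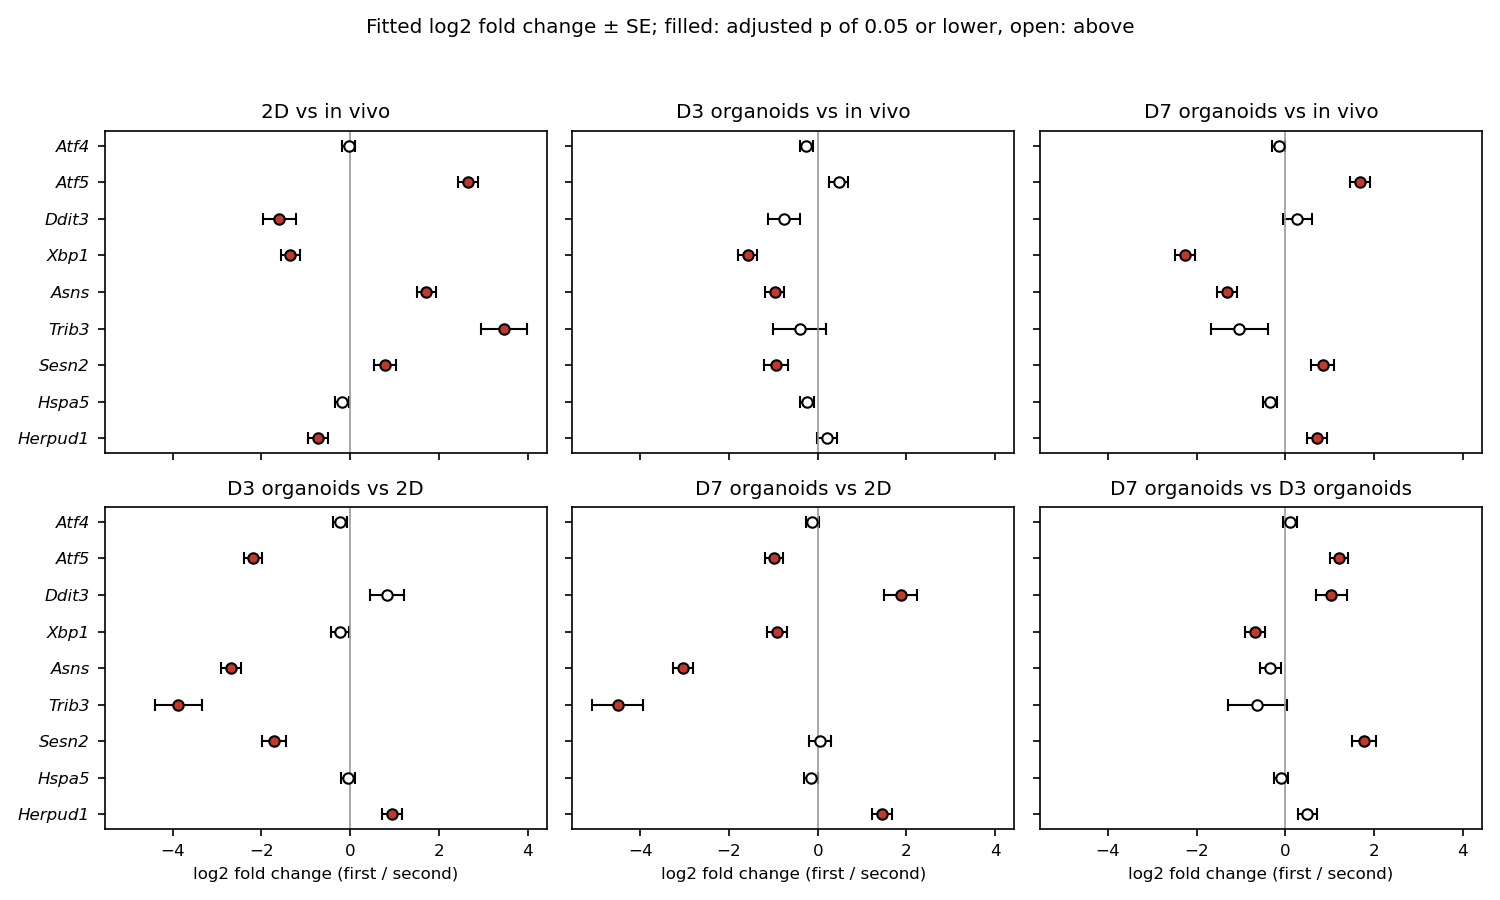
Fitted log2 fold change (first group over second) with SE for the 9 tested genes in the 6 comparisons; filled points have an adjusted p of 0.05 or lower in edgeR's test and open points do not. Asns and Trib3 lie to the right in 2D-cultured against in vivo TECs and to the left in both organoid groups against 2D-cultured TECs, while Atf4 and Hspa5 stay close to 0 in all 6 panels.

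**Figure D4:**
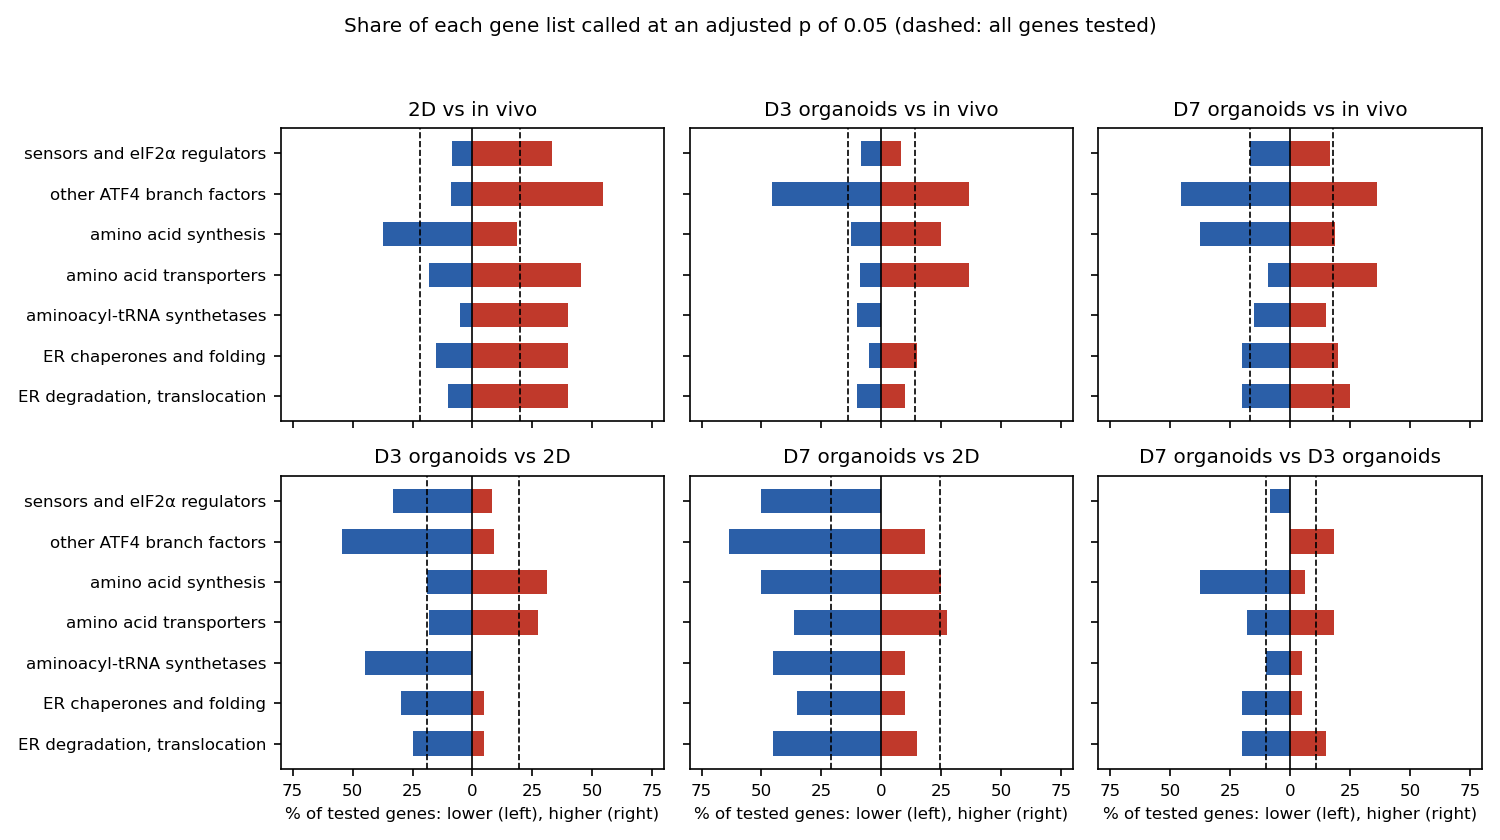
Share of the tested genes of each pathway list, in percent, called higher (to the right) or lower (to the left) in each comparison, with dashed lines at the share over all 14504 genes tested. For the other ATF4 branch genes, 6 of 11 are higher in 2D-cultured than in in vivo TECs and 6 and 7 of 11 are lower in D3 and D7 organoids than in 2D-cultured TECs; these comparisons share the 2D libraries.

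As a description of likeness, genes whose log2 levels followed that of Asns most closely over the 8 libraries included Actn1, which crosslinks actin (Pearson r = 0.995), the pseudogene Rpl35a-ps2 (0.993), the proteasome activator Psme4 (0.992) and the glycolytic enzyme Tpi1 (0.988). For Hspa5 the closest 5 were Glt8d2 (0.934), Gm15853 (0.929), Wac (0.925), Gm37116 (0.925) and Zfp389 (0.919). Hspa5 spanned only 1.42-fold over the 8 libraries and no comparison of it passed the test, so its r values may follow replicate differences. The 8 points of each r come from 4 groups, and for Asns the 2 libraries of 2D-cultured TECs lie apart from the other 6.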

How the data were processed

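Bulk RNA sequencing of 8 libraries was analysed, 2 each of in vivo TECs, 2D-cultured TECs, D3 organoids and D7 organoids. The authors made QuantSeq 3′ libraries, used STAR to align them to GRCm39 and deposited raw read counts per Ensembl gene, with no normalization. The submitters' processing notes name R 4.1.2, edgeR and limma. Of 56923 genes, 56236 were matched to a symbol in a GENCODE annotation of GRCm39 and 687 were not. The annotation release, the strand setting and the handling of reads with several matches are not given in the sources used here. Total counts of 5084715 to 7612532 per library limit the precision, and 3 counts or fewer were taken as the floor of detection.

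A gene was tested if 3 or more of the 8 libraries had 1 CPM or more, as 14504 genes did. With 2 libraries in each group, a gene that reached 1 CPM in 1 group alone was not tested. The shares over all genes tested leave such genes out. Counts were scaled by TMM and tested in R 4.3.3 with edgeR 4.0.16's quasi-likelihood test, as 1 model of the 4 groups with all 6 comparisons, Benjamini-Hochberg adjustment over all genes tested and a threshold of 0.05. All adjusted p-values in the text are from this test unless another is named. SEs of log2 fold changes were derived from the fold change and its F statistic. Alternatives were DESeq2 1.42.0 (size factors, or its Wald test), limma 3.58.1 (voom, the study's method), library size alone, no filter, a mean of at least 10 CPM, no ribosomal RNA or mitochondrial genes, only the 4 libraries compared, a block for replicate number, and each library left out in turn. In the last case the remaining library of a group was assumed to vary like the other groups. The procedure was also run on counts simulated from its own fitted levels and spread. Such counts follow the model, so they cannot show how reliable calls from 2 libraries a group are here. Tables and figures were made in Python 3.11.15 with pandas 2.3.3 and matplotlib 3.10.9.

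The 10 genes, the pathway lists and the tests were chosen with earlier results of these data known, so none of the patterns is independent support for them. From each list and comparison, up to 3 genes in each direction could be named: those with the largest fold change among genes past the threshold, no overlap between the groups and 10 CPM or more in each library of the higher one. For Asns and Hspa5, the 5 genes with the highest Pearson correlation of log2 CPM were to be named, of which 1 is not reported here. The groups share replicate numbers in the labels, but nothing says that a number marks a shared animal, and numbers were not taken as pairs. To find shared sequence, 50-base words were taken from the final 500 bases of every transcript and compared across genes, and the 10 genes shared none with other genes. Promoter windows came from RefSeq (GRCm38.p6) for all 10 genes and were located in GRCm39 by exact match.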

Additional observations from a re-analysis of the deposited data

How the results depend on the processing

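Of 78 counts of called members over all alternatives and comparisons, 74 stayed within 1.5 times the value given. The other 4 came from leaving out a library: 3 to 5 of the 9 genes were then called in D7 organoids against in vivo TECs and 2 to 3 in D7 against D3 organoids. With the replicate number as a block, 7, 3, 5, 5, 6 and 4 of the 9 genes were called in the 6 comparisons, the same as without it, and the block changed no call of a member. Over all genes tested, the block raised the number called in every comparison, such as from 3011 to 3585 in D7 against D3 organoids. Deviations of libraries with the same number correlated weakly and positively, at 0.019 to 0.121. These values do not settle whether a number marks a shared animal, and numbers were not taken as pairs. The number of members called does not show which genes were called. Over all alternatives and comparisons, 653 fold changes of members kept sign and call, 26 lost their call and 2 gained one. The sign turned in the other 21, none of which had passed the test, and the cause was not tested. Atf4 in 2D-cultured against in vivo TECs was 0.04 with no filter on low counts, 0.03 without ribosomal RNA and mitochondrial genes, and between -0.15 and 0.10 with a library left out. Scaling by library size alone, which moved the median gene by 0.263 in D3 organoids and by 0.205 in D7 organoids against 2D-cultured TECs, gave 0.03, 0.21 and 0.03 for Atf4, Hspa5 and Xbp1 at D3 and 0.08 and 0.05 for Atf4 and Hspa5 at D7. With a library left out, Trib3 ranged from -1.12 to 1.38 at D3 and from -1.84 to 0.71 at D7 against in vivo TECs, and from -1.43 to 0.03 between D7 and D3 organoids. Herpud1 at D3 (-0.04 to 0.51) and Ddit3 at D7 (-0.28 to 0.70) turned likewise against in vivo TECs. Against 2D-cultured TECs the ranges were -0.22 to 0.15 for Hspa5 and -0.57 to 0.18 for Xbp1 at D3, and -0.07 to 0.17 for Sesn2 and -0.33 to 0.04 for Hspa5 at D7. Hspa5 between D7 and D3 organoids ranged from -0.31 to 0.05. Ddit3 in D7 against D3 organoids with library size alone was 0.97 (adjusted p = 0.055). Counts of the pathway lists moved by over 1.5 times in 191 cases and by less in 1057. Depth limits Chac1, which had at most 18 counts in a library, and Trib3 outside the 2D libraries, with 6 to 42 counts.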
